A study of Mus musculus with 9 samples.

Results

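The 10 transcripts described here encode cyclic nucleotide phosphodiesterases, the enzymes that break down the second messengers cAMP and cGMP. They are Pde1a, Pde1c, Pde2a, Pde3a, Pde3b, Pde4b, Pde4d, Pde5a, Pde7a and Pde8a, taken by symbol from 24964 gene rows of a table of read counts. Bulk RNA of 9 mouse hearts was sequenced. All 9 were male C57BL/6JR mice, 8 weeks old, operated under isoflurane with the left chest opened. Myocardial infarction (MI) was made in 6 of them by ligation of the left anterior descending (LAD) artery, and 3 of these hearts were taken at 7 d (MI 7 d) and 3 at 28 d (MI 28 d). The 3 sham mice had the same operation with no ligation. The labels give the tissue only as heart, with no division into infarct and remote muscle, and give no harvest time for the sham hearts. The mice carry no transgene or deletion per the labels, and nothing in the labels says that hearts were pooled.

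Adenylyl cyclases make cAMP in response to hormones such as adrenaline, and guanylyl cyclases make cGMP in response to nitric oxide and natriuretic peptides. Phosphodiesterases end both signals, and each family is held at its own place in the cell, so that a heart muscle cell can keep separate pools of cAMP near its calcium channels, its sarcoplasmic reticulum and its nucleus. The families differ in substrate and control. PDE1 enzymes are switched on by calcium and calmodulin and cut both messengers, PDE2 is stimulated by cGMP, PDE3 is inhibited by cGMP, PDE4, PDE7 and PDE8 cut cAMP, and PDE5 cuts cGMP.

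At 7 d, transcripts of 3 of the 10 genes were higher than in sham hearts (Pde1a, Pde3b and Pde5a) and those of the other 7 were lower, where 74.4% of all tested genes were called in either direction. Pde1a rose 4.97-fold while Pde1c, of the same family, fell 5.38-fold, and Pde3b rose 4.27-fold while its relative Pde3a fell 3.2-fold. At 28 d, 2 genes were higher than in sham hearts and 5 were lower, where 55.1% of all tested genes were called. Between 7 d and 28 d, Pde1c, Pde2a and Pde4d rose and Pde1a and Pde5a fell, where 55.2% of all tested genes were called.

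Each level below is in CPM, a gene's read count relative to the library total, after scaling by the trimmed mean of M values (TMM), given for replicates 1, 2 and 3 in turn. Log2 fold changes are followed by their standard error. "Rose", "fell", "higher" and "lower" of a test mean an adjusted p under 0.05 in edgeR's quasi-likelihood test (two-sided), adjusted by the Benjamini-Hochberg method across the 14347 genes tested. All 10 genes passed the filter on low counts, with 67 to 1753 counts in a library. The libraries held 12351525 to 19238101 counts, with 16059 to 17299 genes detected. Sham libraries differed from each other far less than the others did, with a biological coefficient of variation of 2.73% against 17% at 7 d and 24.2% at 28 d. The sham libraries differed by little more than counting error, the ratio of chi-square to degrees of freedom being 1.64 to 1.76 for pairs of them and 17.9 to 67.4 for pairs within the MI groups. The series design counts 3 mice in each group, but no label ties a library to a mouse, so p-values measure the spread between these libraries, which may be technical. In bulk RNA, fewer cells of a type and less RNA per cell cannot be told apart.

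The marker genes of heart muscle were present, all 10 of them in all 9 libraries. Their summed level was 101000 to 104000 CPM in sham hearts, 15100 to 19200 CPM at 7 d and 36600 to 63200 CPM at 28 d, and 10 of 10 were lower at 7 d and 7 of 10 at 28 d. Fibroblast markers summed to 2200 to 2260, 31800 to 41800 and 5810 to 12000 CPM, with 8 of 8 and 7 of 8 higher. Macrophage markers summed to 579 to 653, 4940 to 6010 and 1020 to 1610 CPM, with 10 of 10 and 9 of 10 higher. Smooth muscle markers summed to 553 to 608, 1290 to 1540 and 758 to 895 CPM, with 4 higher and 2 lower of 7 at 7 d and 5 and 1 at 28 d. Endothelial markers summed to 2190 to 2260, 955 to 1130 and 704 to 1110 CPM, with 7 and 9 of 10 lower. Adipoq, a marker of fat cells, was at 0.423 to 1.75 CPM in sham hearts but at 217 CPM in MI 7 d replicate 3 and at 130 and 122 CPM in MI 28 d replicates 1 and 3, against 0.496 to 3.12 CPM in the other MI libraries. The 7 fat cell markers, with Adipoq among them, summed to 604 to 620 CPM in sham hearts. Their sums were 165, 165 and 2260 CPM at 7 d and 1580, 241 and 1290 CPM at 28 d. Of the 7, 4 were higher at 7 d and 3 at 28 d, and 0 were lower. Fabp4, also on this list, was at 594 to 614 CPM in sham hearts. It was at 162, 136 and 754 CPM at 7 d and at 516, 236 and 444 CPM at 28 d. The part of these cell types in the phosphodiesterase changes was not tested.

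On the GRCm38 assembly (RefSeq), Pde1a lies on chromosome 2 at 79834453-80196522 and Pde1c on 6 at 56069798-56652510, both on the minus strand. Pde2a lies on chromosome 7 at 101421691-101512829, Pde3b on 7 at 114415222-114537938 and Pde8a on 7 at 81213265-81334535, all on the plus strand. Pde3a lies on 6 at 141249269-141506862, Pde4b on 4 at 102087332-102607275, Pde4d on 13 at 108654177-109955969 and Pde5a on 3 at 122729158-122859374, on the plus strand, and Pde7a on 3 at 19223108-19311322 on the minus strand. All are annotated as protein-coding, and the counts are over whole genes. In the GENCODE M21 annotation, 64.3% of the exon bases of Pde2a are shared with Gm45837 on the same strand, which has no row of its own in the count table. Rows with 0 counts in all libraries, such as Pde6c, are kept in that table, so Gm45837 was likely not a counted gene. Reads over the shared bases would then count for Pde2a, whichever gene they came from. The annotation used for counting is not given, and the levels of Pde2a are uncertain to that extent. Pde3a shares 5.82% of its exon bases with Gm28523 on the opposite strand, and the strand setting of the counting is not given in the sources used here.

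RefSeq's promoter table for GRCm38.p6 holds windows for 7 of the 10 genes, 19 windows in all. There is none for Pde3a, Pde3b and Pde7a. The 250 bases before the start are shown for the 3 genes with a single window, because 1 of them rose after infarction (Pde5a) and the others fell (Pde4d and Pde8a). Pde5a is at chr3:122728908-122729157, Pde4d at chr13:108653927-108654176 and Pde8a at chr7:81213015-81213264, each on the plus strand. Capitals mark any match, on either strand, to TGACGTCA (the cAMP response element, CRE), TGACG (its core, also found within the CRE), TGANTCA (AP-1), GGAATG (TEAD) or GGGCGG (GC box).
Pde5a: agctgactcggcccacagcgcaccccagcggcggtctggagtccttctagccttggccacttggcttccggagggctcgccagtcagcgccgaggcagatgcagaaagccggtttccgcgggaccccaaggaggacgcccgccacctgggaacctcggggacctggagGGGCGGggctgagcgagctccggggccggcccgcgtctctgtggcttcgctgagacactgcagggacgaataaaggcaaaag
Pde4d: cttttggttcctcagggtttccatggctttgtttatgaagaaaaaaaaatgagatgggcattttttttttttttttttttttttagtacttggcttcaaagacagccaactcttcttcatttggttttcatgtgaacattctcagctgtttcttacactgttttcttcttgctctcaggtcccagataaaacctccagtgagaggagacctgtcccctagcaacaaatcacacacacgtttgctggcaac
Pde8a: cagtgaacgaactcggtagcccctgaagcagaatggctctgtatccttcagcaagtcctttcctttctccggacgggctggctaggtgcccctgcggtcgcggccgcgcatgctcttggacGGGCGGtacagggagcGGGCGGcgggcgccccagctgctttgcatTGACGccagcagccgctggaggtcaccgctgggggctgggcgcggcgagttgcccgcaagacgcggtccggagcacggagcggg

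The Pde5a window held 1 GC box, the Pde8a window held 2 GC boxes and 1 TGACG, and the Pde4d window held none of the 5 motifs. Over the 19 windows of the 7 genes, 0 held TGACGTCA, 3 held TGACG, 1 held TGANTCA, 2 held GGAATG and 3 held GGGCGG. Of 32851 windows of 250 bases in the table, 1.55%, 17.8%, 6.75%, 12.6% and 32.7% held these motifs in the same order. These are matches of letters only. A single window does not mean a single promoter. Pde4d has 20 transcripts in GENCODE M21, and its window lies just before the start of the gene. Any start further within Pde4d was not searched.

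The comparison of MI 7 d with sham hearts asks which phosphodiesterase transcripts differ 7 d into infarction. Of the 10 genes 3 were called higher and 7 lower, where 74.4% of all tested genes were called (39% higher and 35.4% lower). The groups did not overlap for any of the 10, and 80.8% of all tested genes also had no overlap (42.6% with all MI libraries higher and 38.2% with all lower). The median log2 fold change was -0.471 over the 10 genes and 0.0642 over all tested genes. The size of single changes differed more than their number, from 1.21-fold for Pde7a to 5.38-fold for Pde1c.

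**Figure D1:**
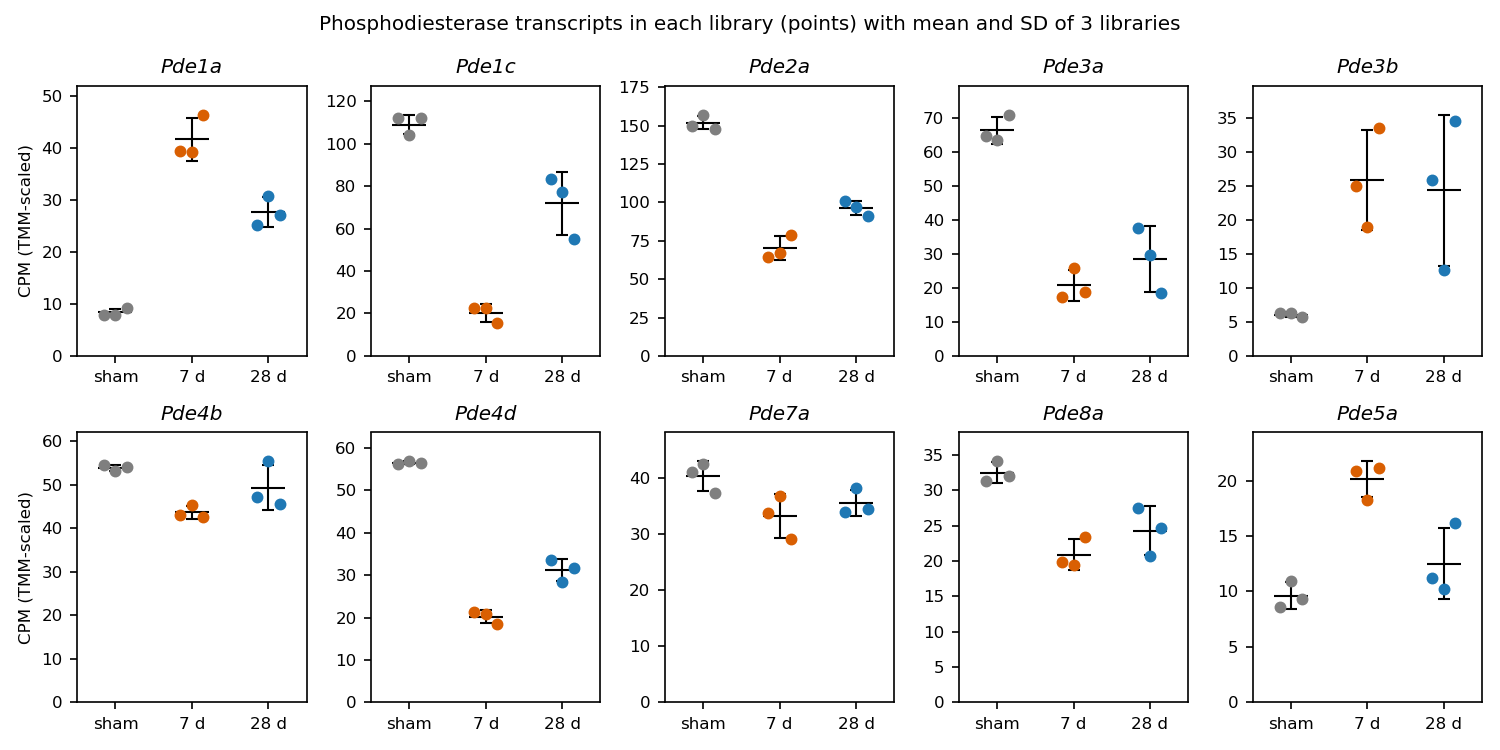
Level of each phosphodiesterase transcript (y axis, TMM-scaled CPM, from 0) in sham, MI 7 d and MI 28 d hearts (x axis). Points are libraries, and bars are the mean and SD of 3. Pde1a, Pde3b and Pde5a are higher at 7 d than in sham hearts with no overlap, and Pde3b at 28 d spreads from 12.7 to 34.6 CPM.

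Among the enzymes that cut both messengers, Pde1a encodes a calcium/calmodulin-stimulated form known from smooth muscle and activated fibroblasts. It stood at 7.94, 7.91 and 9.21 CPM in the sham libraries, 39.3, 39.1 and 46.3 CPM at 7 d and 25.1, 30.8 and 27 CPM at 28 d. Every MI library was above every sham library, and the 28 d libraries lay between the other groups without touching either. The log2 fold change was 2.31 ± 0.12 at 7 d (edgeR adjusted p = 2.6e-07), higher than for 89.8% of tested genes. It was 1.72 ± 0.12 at 28 d (edgeR adjusted p = 1.12e-05), and from 7 d to 28 d Pde1a fell 1.5-fold (-0.59 ± 0.11, edgeR adjusted p = 0.00141). The summed fibroblast markers were 17-fold higher at 7 d and 3.78-fold higher at 28 d, in the same order of groups. Within the MI groups Pde1a was highest in MI 7 d replicate 3 and MI 28 d replicate 2, while these markers were highest in MI 7 d replicate 1 and MI 28 d replicate 3. Activated fibroblast markers were at 8230, 8910 and 6500 CPM at 7 d and at 1240, 1940 and 1120 CPM at 28 d, highest in replicate 2 of both groups. Without the 3 Adipoq-rich libraries, which left 1 library at 28 d, the log2 difference of Pde1a from 7 d to 28 d was -0.353.

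Pde1c, the calcium/calmodulin-stimulated form of heart muscle cells and of proliferating smooth muscle, showed the largest fall of the 10 at 7 d. Its levels were 112, 104 and 112 CPM in sham hearts, then 22.8, 22.6 and 15.5 CPM at 7 d and 83.3, 77.2 and 55.3 CPM at 28 d. The 3 groups were fully separate, with 28 d between 7 d and sham. Pde1c fell by 2.43 ± 0.18 on the log2 scale at 7 d (edgeR adjusted p = 1.69e-06), and only 4.2% of tested genes had a lower value. At 28 d it was still 1.52-fold lower than in sham hearts (-0.60 ± 0.17, edgeR adjusted p = 0.014), though not called with library size alone as the scaling (-0.365, edgeR adjusted p = 0.0561) or with the sham libraries summed to 1 (-0.64, edgeR adjusted p = 0.116). From 7 d to 28 d it rose 3.54-fold (1.82 ± 0.18, edgeR adjusted p = 3.65e-05), higher than for 97.7% of tested genes. Summed heart muscle markers were 6.23-fold lower at 7 d, 2.09-fold lower at 28 d and 2.98-fold higher at 28 d than at 7 d. At 28 d Pde1c had the same order of libraries as these markers, which were 63200, 48100 and 36600 CPM in replicates 1, 2 and 3. At 7 d the markers were at 19200, 15100 and 15300 CPM, with replicate 2 the lowest, while Pde1c was lowest in replicate 3.

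Pde2a encodes the cGMP-stimulated enzyme that links a rise in cGMP to a loss of cAMP. It was at 150, 157 and 148 CPM in sham hearts, then 64.4, 67.3 and 78.8 CPM at 7 d and 101, 97.2 and 91.4 CPM at 28 d. No library of a group reached into another group. Pde2a fell 2.16-fold at 7 d (-1.11 ± 0.09, edgeR adjusted p = 2.35e-06) and was 1.57-fold lower than sham at 28 d (-0.65 ± 0.09, edgeR adjusted p = 0.000303). It rose 1.37-fold from 7 d to 28 d (0.46 ± 0.09, edgeR adjusted p = 0.00164).

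The PDE3 enzymes cut cAMP and are held back by cGMP. Pde3a, the main PDE3 of heart muscle, where it acts beside the calcium pump of the sarcoplasmic reticulum, stood at 64.7, 63.3 and 70.8 CPM in sham hearts. It was at 17.4, 25.8 and 18.9 CPM at 7 d and at 37.6, 29.6 and 18.5 CPM at 28 d. All MI libraries lay below all sham libraries, and the MI groups overlapped because MI 28 d replicate 3 was as low as the 7 d libraries. Pde3a fell 3.2-fold at 7 d (-1.68 ± 0.23, edgeR adjusted p = 0.000113) and was 2.33-fold lower than sham at 28 d (-1.22 ± 0.23, edgeR adjusted p = 0.00185). The difference between the MI groups was 0.46 ± 0.23 (edgeR adjusted p = 0.12) and passed only without MI 28 d replicate 3 among the 19 alternative settings (0.699, edgeR adjusted p = 0.00434). Summed heart muscle markers were at 19200, 15100 and 15300 CPM in the 7 d libraries and at 63200, 48100 and 36600 CPM in those of 28 d. Their part in the Pde3a levels was not tested.

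Pde3b is known from fat, liver and pancreatic islet cells, where it carries the effect of insulin on cAMP, and is also found in the heart. It was at 6.28, 6.25 and 5.66 CPM in sham hearts, then 25.1, 19 and 33.6 CPM at 7 d and 25.9, 12.7 and 34.6 CPM at 28 d. Every MI library was above every sham library, and the MI groups covered each other. Pde3b rose 4.27-fold at 7 d (2.09 ± 0.35, edgeR adjusted p = 0.00039) and was 4.03-fold higher than sham at 28 d (2.01 ± 0.35, edgeR adjusted p = 0.00118). Of the 10 genes it varied most within the MI groups, with a coefficient of variation of 28.3% at 7 d and 45.4% at 28 d. In each MI group its highest values were in the Adipoq-rich libraries. Without these 3 libraries its log2 fold change against sham hearts was 1.85 at 7 d and 1.05 at 28 d, where 1 library was left at 28 d and was assumed to vary like the others. The difference of 28 d from 7 d was -0.08 ± 0.32 (edgeR adjusted p = 0.837) with all libraries and -0.806 without the 3. It turned to 0.146 without MI 7 d replicate 3 and to 0.229 without MI 28 d replicate 2.

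**Figure D2:**
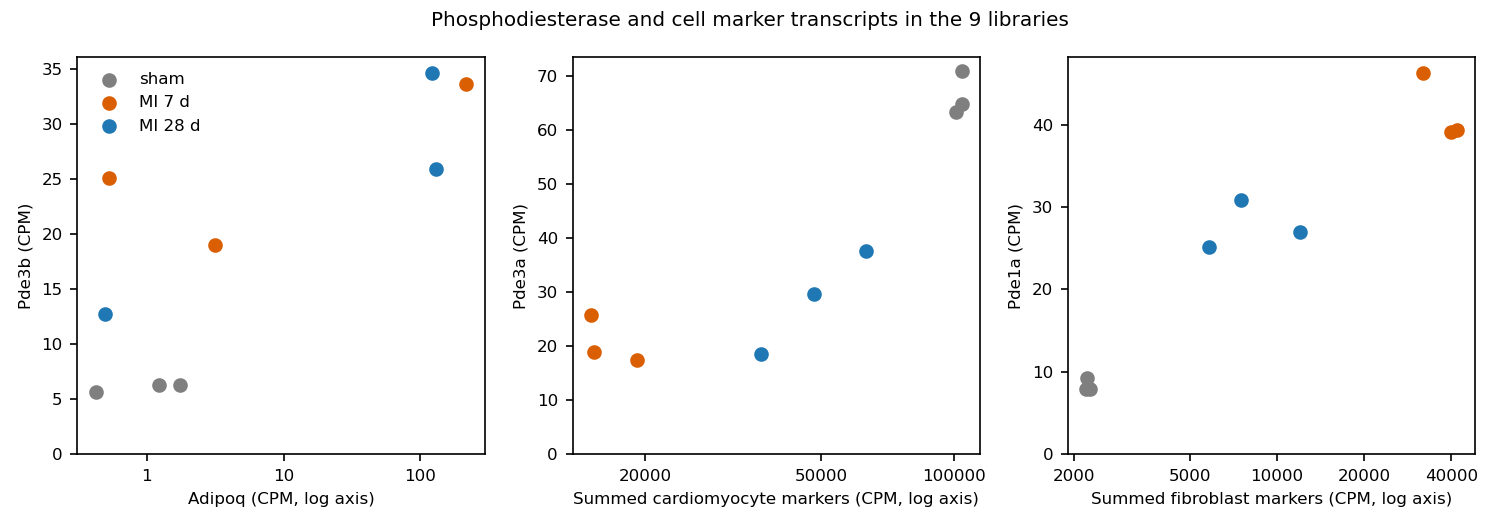
Levels of Pde3b, Pde3a and Pde1a (y axes, CPM from 0) against the level of Adipoq and the summed levels of the heart muscle and fibroblast markers (x axes, CPM on log axes) in the 9 libraries, coloured by group. Pde3b is at 19 to 25.1 CPM in the 7 d libraries with little Adipoq and at 33.6 CPM in the Adipoq-rich one. At 28 d it is at 12.7 CPM in the library with little Adipoq and at 25.9 and 34.6 CPM in the Adipoq-rich ones. The sham range is 5.66 to 6.28 CPM.

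PDE4 enzymes are the cAMP-specific family targeted by rolipram. Pde4d, whose product sits with the ryanodine receptor and the beta-adrenergic receptors in heart muscle, was at 56.3, 56.8 and 56.5 CPM in sham hearts, the tightest group of the 10 genes (coefficient of variation 0.503%). It was at 21.2, 20.9 and 18.5 CPM at 7 d and at 33.6, 28.3 and 31.7 CPM at 28 d. The 3 groups were separate, with 28 d in the middle. Pde4d fell 2.8-fold at 7 d (-1.48 ± 0.09, edgeR adjusted p = 5.06e-07), was 1.81-fold lower than sham at 28 d (-0.86 ± 0.09, edgeR adjusted p = 7.82e-05) and rose 1.54-fold between the MI groups (0.63 ± 0.09, edgeR adjusted p = 0.000263).

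Pde4b, which acts near L-type calcium channels in heart muscle and is also the PDE4 of many immune cells, moved far less. It was at 54.4, 53 and 54 CPM in sham hearts, then 42.9, 45.4 and 42.6 CPM at 7 d and 47.1, 55.3 and 45.6 CPM at 28 d. The 7 d libraries lay below the others, and MI 28 d replicate 2 was above all sham libraries. Pde4b fell 1.23-fold at 7 d (-0.30 ± 0.08, edgeR adjusted p = 0.00811), but with library size alone as the scaling its log2 fold change was 0.0319 (edgeR adjusted p = 0.746), and it was not called with the sham libraries summed to 1 (edgeR adjusted p = 0.0779). At 28 d the value was -0.13 ± 0.08 against sham (edgeR adjusted p = 0.228), with 0.121 under library size alone and 0.0281 without the Adipoq-rich libraries. Without MI 28 d replicate 2 it passed at -0.217 (edgeR adjusted p = 0.0438). Between the MI groups it was 0.18 ± 0.08 (edgeR adjusted p = 0.0967) with no overlap, and it passed without MI 28 d replicate 3 (0.233, edgeR adjusted p = 0.0332). The value was 0.321 without the Adipoq-rich libraries, which left 1 library at 28 d.

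Pde7a and Pde8a encode rolipram-insensitive cAMP enzymes with a high affinity for cAMP. Pde7a, best known from T cells, was at 41.1, 42.6 and 37.4 CPM in sham hearts, then 33.9, 36.8 and 29.1 CPM at 7 d and 34, 38.3 and 34.5 CPM at 28 d. Sham and 7 d libraries were separate by a narrow margin, and 28 d overlapped both. Its fall at 7 d was 1.21-fold (-0.28 ± 0.10, edgeR adjusted p = 0.0304), with a value of 0.0529 under library size alone (edgeR adjusted p = 0.658). The call was lost without sham replicate 1 or 2, without MI 7 d replicate 1 or 3, without the Adipoq-rich libraries and with the sham libraries summed, with edgeR adjusted p of 0.0532 to 0.124. At 28 d it was at -0.18 ± 0.10 against sham (edgeR adjusted p = 0.159; 0.0663 with library size alone) and at 0.10 ± 0.10 against 7 d (edgeR adjusted p = 0.436).

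Pde8a, known for its part in heart muscle calcium handling and steroid-making cells, was at 31.3, 34.1 and 32 CPM in sham hearts, then 19.8, 19.4 and 23.4 CPM at 7 d and 27.5, 20.7 and 24.7 CPM at 28 d. All MI libraries were below all sham libraries, and the MI groups overlapped. Pde8a fell 1.56-fold at 7 d (-0.64 ± 0.12, edgeR adjusted p = 0.000789) and was 1.34-fold lower than sham at 28 d (-0.42 ± 0.12, edgeR adjusted p = 0.0144). The second call was lost with library size alone (-0.173, edgeR adjusted p = 0.243), with the sham libraries summed (-0.452, edgeR adjusted p = 0.121) and without sham replicate 2 (-0.393, edgeR adjusted p = 0.0509), and the value was -0.661 without the Adipoq-rich libraries. Against 7 d it was 0.22 ± 0.12 higher at 28 d (edgeR adjusted p = 0.142) and passed without MI 28 d replicate 2 (0.326, edgeR adjusted p = 0.0395).

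Pde5a, the cGMP-specific enzyme of smooth muscle that sildenafil inhibits, was at 8.64, 10.9 and 9.3 CPM in sham hearts, then 20.9, 18.2 and 21.1 CPM at 7 d and 11.2, 10.2 and 16.2 CPM at 28 d. The 7 d libraries stood above all others, and the 28 d libraries overlapped sham, with MI 28 d replicate 3 the highest of them. Pde5a rose 2.09-fold at 7 d (1.06 ± 0.18, edgeR adjusted p = 0.000382) and fell 1.6-fold from 7 d to 28 d (-0.68 ± 0.17, edgeR adjusted p = 0.00788). Its value at 28 d against sham was 0.38 ± 0.18 (edgeR adjusted p = 0.0955), which passed with library size alone (0.64, edgeR adjusted p = 0.0208) and without MI 28 d replicate 2 (0.51, edgeR adjusted p = 0.0415) and was 0.0783 without the Adipoq-rich libraries. Summed smooth muscle markers were 2.43-fold higher at 7 d and 1.4-fold higher at 28 d than in sham hearts. The 7 markers were split, with 4 higher and 2 lower at 7 d and 5 and 1 at 28 d. Myh11, a member of this list, was at 91.3, 64.8 and 68.7 CPM in sham hearts. It was at 105, 64.4 and 130 CPM at 7 d and at 118, 160 and 114 CPM at 28 d. The part of smooth muscle in the Pde5a change was not tested.

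The comparison of MI 28 d with sham hearts asks which differences are present 28 d after the infarction. It shares the sham libraries with the comparison at 7 d. Pde1a and Pde3b were higher and Pde1c, Pde2a, Pde3a, Pde4d and Pde8a were lower, 7 of 10, where 55.1% of all tested genes were called (29.5% higher and 25.6% lower). The groups did not overlap for the same 7 genes, 2 higher and 5 lower, against 66.4% of all tested genes (34.7% and 31.7%). With library size alone as the scaling, 3 were higher and 3 lower. Each of the 7 called log2 fold changes was smaller in size than at 7 d, and the difference between the times passed its test for 4 of them (Pde1a, Pde1c, Pde2a and Pde4d). The median over the 10 genes was -0.3 against 0.0538 over all tested genes.

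**Figure D3:**
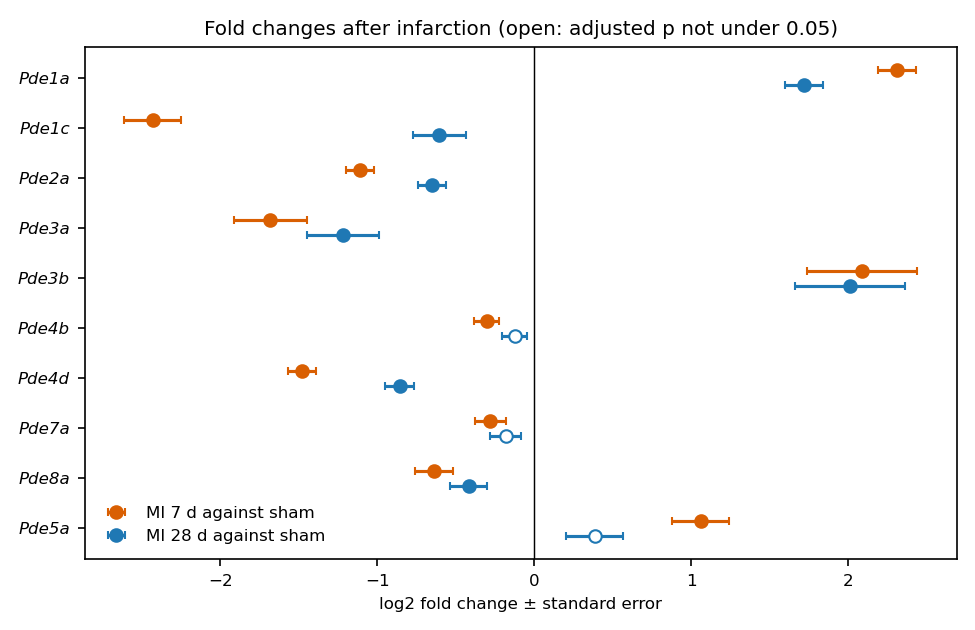
Log2 fold changes (x axis) of the 10 phosphodiesterase genes at 7 d (orange) and 28 d (blue) against sham, with bars of 1 standard error; open points have an edgeR adjusted p of 0.05 or more. Points for Pde1c lie at -2.43 and -0.60 and those for Pde3b at 2.09 and 2.01. With library size alone as the scaling, the points of Pde4b and Pde7a change side.

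Between MI 28 d and MI 7 d, which asks how the transcripts moved as the infarct aged, 3 of the 10 genes were higher and 2 lower, where 55.2% of all tested genes were called (29.1% and 26.1%). Groups did not overlap for 6 genes, 4 higher and 2 lower, against 59.8% of all tested genes (30.9% and 28.9%). In all 5 called genes the 28 d mean lay between the 7 d mean and the sham mean. Without MI 28 d replicate 3 the number called higher was 5, with Pde3a and Pde4b added. Without the 3 Adipoq-rich libraries, which left 1 library at 28 d, the log2 difference was -0.806 for Pde3b and 0.321 for Pde4b. The median log2 fold change was 0.199 over the 10 genes and 0.0327 over all tested genes.

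To compare levels between genes, CPM was divided by the exon length of each gene (CPM per kb, exons merged over all GENCODE M21 transcripts). In sham hearts Pde2a was the highest of the 10 at 24.7 CPM per kb and Pde8a followed at 8.03. Pde1c, Pde7a, Pde3a and Pde4b lay at 5.44, 5.21, 5.2 and 5.09 CPM per kb, each overlapping its neighbour in this order, and Pde4d at 4.71. Pde1a, Pde5a and Pde3b came last at 1.39, 0.979 and 0.666 CPM per kb. At 7 d the order was Pde2a (11.4 CPM per kb), Pde1a (6.91), Pde8a (5.16), Pde7a and Pde4b (4.29 and 4.13, overlapping), Pde3b and Pde5a (2.84 and 2.04, overlapping), Pde4d and Pde3a (1.68 and 1.63, overlapping) and Pde1c (1.01). By this length Pde1a went from the eighth place to the second and Pde1c from the third to the last. At 28 d Pde2a led at 15.7 CPM per kb, Pde8a, Pde4b, Pde7a and Pde1a followed at 6.01 to 4.59 with neighbours overlapping, and Pde1c, Pde3b, Pde4d, Pde3a and Pde5a ran from 3.58 to 1.28, again overlapping. With the length of the longest coding transcript instead, Pde2a was first in all 3 groups and Pde1a, Pde5a and Pde3b last in sham hearts, but other places changed, with Pde4d in place 2 and Pde1c in place 4 in sham hearts, and Pde1a in place 3, Pde1c in place 9 and Pde3a in place 10 at 7 d.

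As a share of all catalytic phosphodiesterase transcripts per kb (20 of 21 such genes had a count), the 10 genes made up 69.2 to 69.8% in the sham libraries, 73.7 to 76.4% in those of 7 d and 73.5 to 74.3% in those of 28 d. The sum over the catalytic genes was 88.4 ± 1.45 CPM per kb in sham hearts (SD, n = 3), 54.8 ± 2.24 at 7 d and 64.9 ± 2.24 at 28 d. The size of this fall depends on the scaling. TMM raised the level of every gene in each sham library and lowered it in each 7 d library. Every 28 d library was also scaled down relative to sham. Sums with library size alone were not computed. The shares do not depend on scaling, but sums and shares rest on the exon length used. Both also rest on Pde2a, whose levels are uncertain because of the shared exon bases. The share of Pde1a was 1.51, 1.46 and 1.74% in sham libraries, 12.4, 11.9 and 13.5% at 7 d and 6.19, 7.97 and 7.11% at 28 d. That of Pde2a was 27.9 ± 0.466%, 20.8 ± 1.4% and 24.2 ± 0.549%, and that of Pde3b 0.753 ± 0.0429%, 5.16 ± 1.3% and 4.13 ± 1.93%. Pde8a kept a mean share of 9.08, 9.39 and 9.25% while its level fell. Of the genes outside the 10, Pde4a was the second largest in sham hearts with 20.6 ± 0.657% and had 7.56 ± 0.803% at 7 d. Pde1b, the other calcium/calmodulin-stimulated gene, went from 0.791 ± 0.0658% to 10.3 ± 0.796%.

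**Figure D4:**
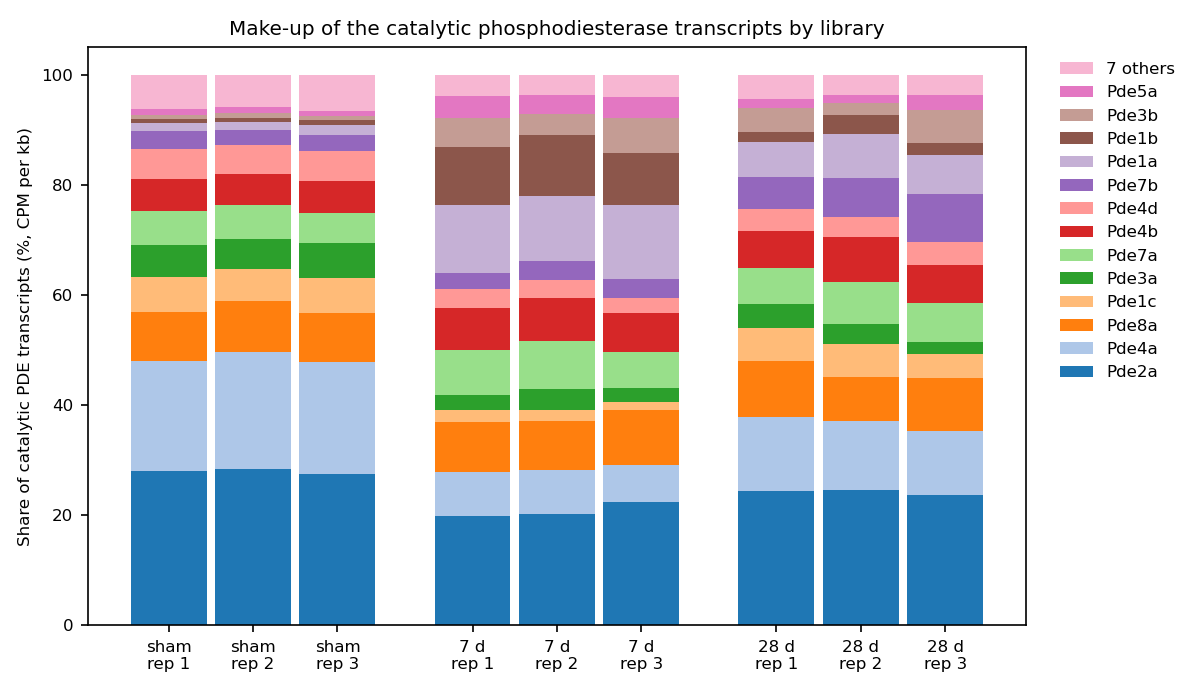
Make-up of the catalytic phosphodiesterase transcripts in each of the 9 libraries, as a percent of their summed CPM per kb (y axis). Pde1a and Pde1b together take a larger band at 7 d (mean shares 12.6% and 10.3%) than in sham hearts (1.57% and 0.791%), and Pde4a a smaller one.

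The ratio of a pair of genes of the same family within a library does not depend on how libraries are scaled. Pde1a to Pde1c per kb was 0.237, 0.254 and 0.274 in sham hearts, 5.75, 5.77 and 9.98 at 7 d and 1.01, 1.33 and 1.63 at 28 d. The ratio was thus below 1 in each sham library and above 1 in each MI library, 27.2-fold higher at 7 d and 5.09-fold higher at 28 d than in sham hearts. Pde3b to Pde3a was 0.136, 0.138 and 0.112 in sham hearts, 2.02, 1.03 and 2.48 at 7 d and 0.965, 0.598 and 2.62 at 28 d, 13.5-fold and 8.97-fold higher than sham, with MI groups that overlapped. Pde4b to Pde4d was 1.1, 1.06 and 1.09 in sham hearts, 2.3, 2.47 and 2.62 at 7 d and 1.59, 2.22 and 1.63 at 28 d, 2.27-fold and 1.66-fold higher. In 8 of the 9 comparisons of these 3 ratios the groups did not overlap, and each of the 8 had the smallest p that 3 against 3 libraries allow in a two-sided exact permutation test (p = 0.1, Benjamini-Hochberg adjusted 0.112 over the 9). The exception was Pde3b to Pde3a at 28 d against 7 d (exact permutation p = 0.5). Of single tested genes, 80.8%, 66.4% and 59.8% also had no overlap at 7 d against sham, 28 d against sham and 28 d against 7 d. The pairs were made from members chosen with earlier results of these data known, without Pde1b and Pde4a. Their separation is therefore not independent of the changes of the single genes. The fold between groups does not depend on gene length, but the ratio itself does. With the longest coding transcript the mean Pde1a to Pde1c ratio at 28 d was 0.815 and that of Pde4b to Pde4d in sham hearts 0.931.

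**Figure D5:**
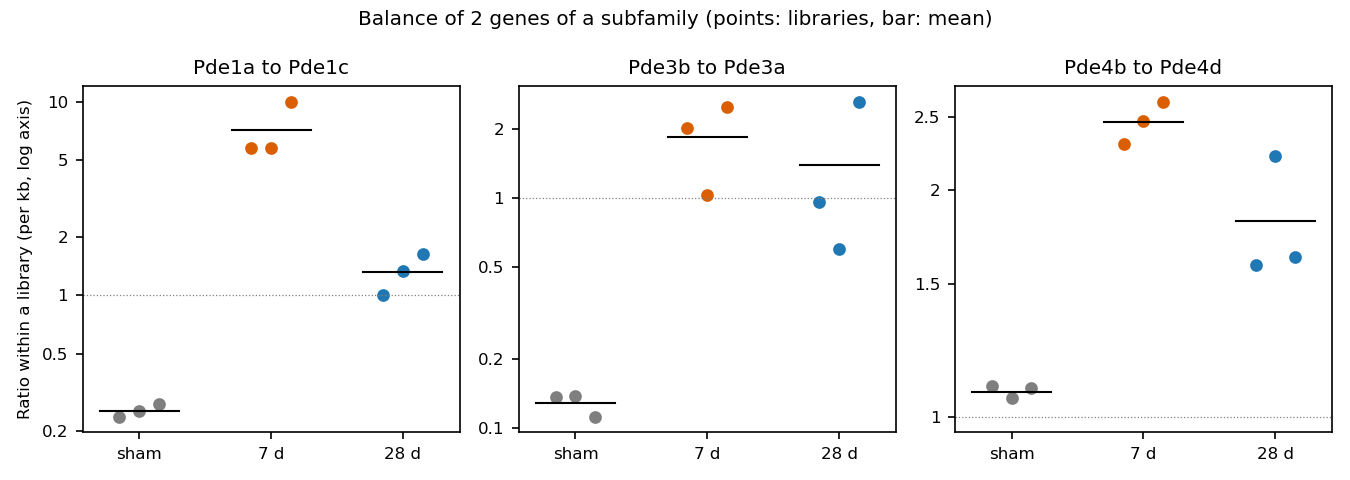
Ratio of the per-kb levels of a pair of genes of 1 family within each library (y axis, log scale; dotted line at 1) in the 3 groups. Bars are means. Pde1a to Pde1c is 0.237 to 0.274 in sham hearts and 5.75 to 9.98 at 7 d.

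Of the other 14 genes with a phosphodiesterase name, 9 could be tested. Pde6d, Pde6g and Pde6h on this list encode products without a catalytic domain. Of these Pde6d was tested and is within the counts below. It was lower at 7 d (-0.58 ± 0.09), not called at 28 d against sham, and higher at 28 d than at 7 d (0.48 ± 0.09). At 7 d 1 was higher and 7 were lower (median log2 fold change -1.09), at 28 d 2 were higher and 5 lower (-1.16), and from 7 d to 28 d 4 were higher and 1 lower (0.231). Of all tested genes 39% were higher and 35.4% lower at 7 d (median 0.0642) and 29.5% and 25.6% at 28 d (0.0538). Between the MI groups these shares were 29.1% and 26.1% (0.0327). Pde1b was at 3.4, 3.86 and 4.06 CPM in the sham libraries and reached 30.1, 32.3 and 29.2 CPM at 7 d, with no overlap and a log2 fold change of 3.01 ± 0.19 (edgeR adjusted p = 6.02e-07). It was 2.35-fold higher than sham at 28 d. Pde4c, a cAMP-specific form, fell from 6.4 ± 0.533 to 0.582 ± 0.12 CPM at 7 d (-3.44 ± 0.32, edgeR adjusted p = 6.46e-06). Pde7b, the relative of Pde7a, was 1.48-fold lower than sham at 7 d (-0.57 ± 0.14, edgeR adjusted p = 0.00373). At 28 d it was 1.74-fold higher than in sham hearts and 2.58-fold higher than at 7 d.

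The counts of the pathway lists below stand beside the shares of all tested genes, of which 39% were higher and 35.4% lower at 7 d, 29.5% and 25.6% at 28 d, and 29.1% and 26.1% between the MI groups. Of 8 tested genes for adenylyl cyclases, which make cAMP, 3 were higher and 4 lower at 7 d, 3 and 3 at 28 d, and 4 and 4 between the MI groups, with medians of -0.732, -0.195 and 0.25. Adcy7, the cyclase of many blood and immune cells, rose from 30.3 ± 1.25 to 186 ± 22.4 CPM at 7 d (2.62 ± 0.11), and Adcy9 fell from 79.4 ± 1.96 to 26.6 ± 3.36 CPM (-1.58 ± 0.10). Adcy5, a main cyclase of heart muscle, rose from 69 ± 2.59 CPM at 7 d to 147 ± 18.4 CPM at 28 d (1.09 ± 0.10). Of 5 tested guanylyl cyclase genes, 2 were higher and 1 lower at 7 d, 1 and 0 at 28 d, and 0 and 2 between the MI groups, with medians of -0.165, 0.078 and 0.122. The lower gene at 7 d was Gucy1a2 (-0.70 ± 0.25, edgeR adjusted p = 0.0305), which was not called without sham replicate 2 or 3, without MI 7 d replicate 1 or 2, with library size alone or with the sham libraries summed (edgeR adjusted p = 0.0553 to 0.212). With no filter, or without the Adipoq-rich libraries, 2 were lower. Gucy1a1 and Gucy1b1, which encode the subunits of the nitric oxide receptor, rose 5.06-fold and 2.62-fold at 7 d and fell 2.81-fold and 2.49-fold from 7 d to 28 d.

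Among 16 effectors, such as protein kinase A and its inhibitors, 5 were higher and 9 lower at 7 d, 4 and 7 at 28 d, and 10 and 2 between the MI groups, with medians of -0.767, -0.0822 and 0.545. Prkaca, the catalytic subunit of protein kinase A, fell from 418 ± 13.3 to 129 ± 6.05 CPM at 7 d (-1.70 ± 0.13) and was at 259 ± 47.9 CPM at 28 d. Bves, a cAMP-binding membrane protein of heart muscle, fell 3.66-fold at 7 d and rose 2.57-fold by 28 d. Prkar2b, a regulatory subunit abundant in fat, was at 18.9 ± 18.2 CPM at 7 d and 16.9 ± 12.4 CPM at 28 d, against 1.42 ± 0.66 CPM in sham hearts. It rose 13.3-fold and 11.9-fold. At 7 d its log2 fold change of 3.73 ± 0.99 was 2.56 without MI 7 d replicate 3 and 2.55 without the Adipoq-rich libraries. It was not called at 7 d with the sham libraries summed, and at 28 d was not called without sham replicate 3 or with the sham libraries summed. Without the Adipoq-rich libraries, which left 1 library at 28 d, its log2 fold change at 28 d was 0.938.

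Of 16 genes that anchor phosphodiesterases or act beside them, 6 were higher and 9 lower at 7 d, 5 and 5 at 28 d, and 6 and 5 between the MI groups, with medians of -0.506, -0.138 and 0.0158. Atp2a2, the calcium pump beside which Pde3a acts, fell from 21000 ± 515 to 1970 ± 252 CPM at 7 d and was at 6660 ± 2720 CPM at 28 d. Arrb2, an arrestin that brings PDE4 enzymes to receptors, rose 8.21-fold at 7 d and 2.69-fold at 28 d. Pde4dip, the anchor myomegalin, rose 3.37-fold from 7 d to 28 d. Of the 2 cyclic nucleotide exporters, Abcc4 fell at 7 d (-0.62 ± 0.16, edgeR adjusted p = 0.00486; -0.289 and not called with library size alone, adjusted p = 0.0509 with the sham libraries summed), and neither was called at 28 d. The 11 tested CREB target genes, which cAMP can switch on, had 3 higher and 5 lower at 7 d, 4 and 4 at 28 d, and 7 and 1 between the MI groups, with medians of -0.0728, -0.188 and 1.26. Nr4a1 fell 6.81-fold at 7 d and rose 4.34-fold by 28 d, and Nr4a3 rose 2.19-fold at 7 d and was 15.5-fold higher than sham at 28 d.

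For the gene with the largest rise at 7 d and that with the largest fall, the tested genes with the most similar levels over the 9 libraries were taken by Pearson's r of log2 CPM among 13663 genes. For Pde1a these were Anxa8 (r = 0.997), Pqlc3, Gli2, Nox4 and Cx3cl1 (each 0.995). For Pde1c they were Fxr2 (r = 0.999), Pkp4, Srf, Cux2 and Trdn (each 0.997). The 9 points share their 3 groups. Trdn encodes triadin, a calcium release protein of the sarcoplasmic reticulum, and Nox4 an enzyme that makes reactive oxygen.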

How the data were processed

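Bulk RNA-seq of 9 mouse hearts was analysed (3 sham, 3 MI 7 d, 3 MI 28 d), grouped by the sample titles. Libraries were made from total RNA with a KAPA kit, per the labels' protocols. Trim Galore, STAR, featureCounts and mm10 are named without versions, per the submitters' processing notes. The annotation, the strand setting and how multimapping reads were handled are details not given in the sources used here. Analysed were the read counts per gene symbol deposited by the authors, not normalized. Of 24964 symbols 24345 matched RefSeq.

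Counts were filtered with filterByExpr (minimum count 10, minimum total 15), scaled by TMM and fitted with a group means model on all 9 libraries in edgeR 4.0.16 (R 4.3.3). A standard error is the size of the log2 fold change divided by the root of the F statistic. Alternatives were DESeq2 1.42.0, its size factors, scaling by library size alone, dropping the filter, tightening it (at least 1 CPM in 3 libraries and a mean of 2), only the 2 groups compared, limma 3.58.1 voom with group weights, the replicate number as a block and leaving out each library. Added after seeing the data were a fit without the 3 Adipoq-rich libraries (Adipoq above 100 CPM), a fit with the sham counts summed to 1 library, and the longest coding transcript as length.

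All 10 genes are named in every comparison. Of each pathway list, the 2 largest rises and falls past the threshold could be named, and only part of these are. Pde4a, Pde6d and the fall of Pde7b at 7 d were named after their values were seen. The members and lists were chosen with earlier results of these data known. In simulated counts for 14347 genes, 66%, 66% and 64% of 2-fold changes and 94%, 90% and 98% of 4-fold changes were called at 7 d against sham, 28 d against sham and 28 d against 7 d, with 8, 10 and 15 false calls among 13956, 13976 and 13954 unchanged genes. Only 100 genes per fold were changed, and each gene had the same spread in all groups. In the real libraries most genes were called and sham varied far less, so these shares do not describe the real comparisons.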

Additional observations from a re-analysis of the deposited data

Results flagged for a closer look

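Of the 10 phosphodiesterase genes, 5 differed between the times after infarction by a test of the difference itself (28 d against 7 d, edgeR's quasi-likelihood test, adjusted over all tested genes), so their effect against the shared sham hearts was not the same at both times. The log2 difference was -0.59 for Pde1a, 1.82 for Pde1c, 0.46 for Pde2a, 0.63 for Pde4d and -0.68 for Pde5a. In each of the 5 the MI groups did not overlap, in 3 of 3 against 3 of 3 libraries. Of all tested genes, 55.2% were called in this comparison and 59.8% had no overlap between the MI groups. The 5 were picked by the test on these same libraries, so the lack of overlap is not separate support.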

How the results depend on the processing

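Over 19 alternative settings, 543 of 570 values of the 10 genes kept their direction and their side of the threshold. With their sign kept, 12 lost a call and 8 gained one, and 7 changed sign. Among the values that changed sign, those of Pde4b and Pde7a at 7 d with library size alone also lost their call. DESeq2, its size factors, both filters, fits of 2 groups and voom changed none of the 30 results. With library size alone, the median log2 fold change of all tested genes moved by 0.333 at 7 d and 0.249 at 28 d against sham, and of the called genes 67.4% and 74% were higher, not 52.5% and 53.5%. It turned Pde4b (0.0319 at 7 d, 0.121 at 28 d) and Pde7a (0.0529 and 0.0663) above 0, and 3 genes, not 5, were lower at 28 d against sham. Summing the sham libraries also left 3 lower there and 3717 of 14347 genes called, not 7906, with fewer libraries tested. Without the Adipoq-rich libraries Pde4b was at 0.0281 at 28 d against sham. At 28 d against 7 d, Pde3b was at 0.146 without MI 7 d replicate 3 and 0.229 without MI 28 d replicate 2, in a range of -0.425 to 0.229 over the 9 libraries left out in turn. Leaving out each library in turn gave 3 to 5 genes higher at 28 d against 7 d. Where no construction is named, the cause was not tested.

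With the replicate number as a block, the 10 genes had 3 higher and 7 lower at 7 d, 2 and 5 at 28 d, and 3 and 2 between the MI groups, with 10583, 7688 and 7785 of all genes called. The numbers are not stated to pair mice, so they were not taken as pairs. Deviations of the 9 same-numbered pairs of libraries correlated at -0.0909 to 0.304, and those of differently numbered pairs at -0.582 to 0.454. Sham libraries deviated little from each other, so these correlations cannot decide whether the numbers mark pairs. Of 1212 values of the pathway genes that could be named, 22 lost a call and 0 changed sign. Counts of 67 to 1753 per library limit the lowest genes, Pde3b, Pde1a and Pde5a in sham hearts, most.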

Other observations

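Markers of further cell types also differed between libraries. Of the 7 T cell markers, 7 were higher at 7 d and 6 at 28 d than in sham hearts, and their sum was 3.93 to 5.15 CPM in sham hearts, 18.9 to 31.4 CPM at 7 d and 11.6 to 20.9 CPM at 28 d. Activated fibroblast markers summed to 195 to 205, 6500 to 8910 and 1120 to 1940 CPM, with 7 of 7 higher at both times. Pericyte markers summed to 1860 to 1910, 1030 to 1170 and 607 to 1190 CPM. Mesothelial markers summed to 7.24 to 8.79 CPM in sham hearts and were highest in MI 28 d replicate 3, at 583 CPM against 94.9 and 111 CPM in the other 28 d libraries. The same library had 151 CPM of summed Schwann cell and neuron markers, against 16.3 and 23.3 CPM.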
